A study of Mus musculus with 6 samples.

Results

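The stefin A gene cluster of mouse chromosome 16 was described in liver immune cells through 8 of its genes, Stfa1, Stfa2, Stfa2l1, Stfa3, Csta2, Csta3, Cstdc4 and Cstdc6. They were taken by their symbols as features of a single gene, and they were chosen because earlier values of these same libraries showed them to be abundant in neutrophils, so their levels are given as a description. All 8 were found in each of the 3 matrices, among 4486 features in that of adjacent tissue, 2669 in that of micrometastasis and 2643 in that of macrometastasis. Balb/c mice had been given 4T07 cells (a mammary tumour line of the mouse) by intracardiac injection, and CD45+ cells sorted out of the liver were profiled by single-cell RNA-seq with 10x Genomics 3′ libraries. The tumour cells were either control (Ctrl) or carried a knockdown of Tim3 by short hairpin RNA (Tim3-KD), and the immune cells themselves were not modified. For each tumour line there was 1 library of adjacent tissue without tumour at day 3, 1 of micrometastasis at day 3 and 1 of macrometastasis at day 12, each a pool of 2 mice. With 1 library per group, the groups could not be tested against each other. The intervals printed are 95% intervals that cover counting error only and not the spread between mice.

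Stefins are small cytosolic proteins of the cystatin family that bind and block papain-like cysteine proteases, such as the lysosomal cathepsins B, L and S. Humans have a single stefin A gene, CSTA, whereas the mouse genome carries a tandem array of related copies, several of them transcribed in myeloid cells. Neutrophils mature in the order promyelocyte, myelocyte, metamyelocyte and mature cell, and they make their granule proteins in successive waves along this path.

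In RefSeq annotation of the build GRCm38.p6 the 8 genes lay at chr16:36156811-36455392, a stretch of 298.582 kb. Their order along the chromosome was Stfa2l1, Cstdc4, Csta3, Csta2, Stfa1, Cstdc6, Stfa2 and Stfa3. The first 5 of these lay on the plus strand, Stfa2 and Stfa3 on the minus strand, and no strand was given for Cstdc6. The stretch held 20 annotated genes, 11 of them protein-coding, and the closest pair of members, Csta3 and Csta2, was 3773 bp apart. In the transcripts of 7 members (GENCODE, without Cstdc6), 15.4% of the 90-base stretches of Cstdc4 also occurred in another member, in all cases Csta2. The share was 9.09% for Csta2, 2.42% for Stfa2l1 and 2.09% for Stfa2, and 0% for Stfa1, Stfa3 and Csta3. Reads from such stretches cannot be given to 1 gene, and the matrices held a separate feature named for Csta2 and Cstdc4 jointly, which was not added to either gene.

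The promoters of the 4 most abundant members are shown because these genes were high in the same cells. RefSeq promoters (250 bases before to 50 after the start of the gene, GRCm38.p6) were found for 7 members and not for Cstdc6. The stretch from 140 to 21 bases before the start is printed 5′ to 3′ on the strand of the gene. Capitals mark TTCCTC, which is the reverse complement of GAGGAA, a core motif of PU.1 (a transcription factor of the myeloid lineage), and CTTTAAAA, a stretch the genes share. The 4 stretches are chr16:36156671-36156790 (plus strand), chr16:36184072-36184191 (plus strand), chr16:36408384-36408503 (minus strand) and chr16:36455413-36455532 (minus strand).
Stfa2l1: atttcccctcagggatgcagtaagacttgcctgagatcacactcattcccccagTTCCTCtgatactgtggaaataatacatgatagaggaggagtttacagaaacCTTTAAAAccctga
Cstdc4: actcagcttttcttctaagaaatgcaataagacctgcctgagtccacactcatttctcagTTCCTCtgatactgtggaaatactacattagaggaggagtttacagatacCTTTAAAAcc
Stfa2: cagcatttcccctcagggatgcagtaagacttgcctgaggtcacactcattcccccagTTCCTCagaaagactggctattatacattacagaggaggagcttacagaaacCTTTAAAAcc
Stfa3: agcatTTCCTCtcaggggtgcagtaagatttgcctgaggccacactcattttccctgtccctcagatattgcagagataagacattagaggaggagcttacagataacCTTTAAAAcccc
GAGGAA, searched on both strands, occurred in 5 of 7 member promoters and in 28.3% of all 32851 promoters of the table. It lay 86 and 224 bases before the start in Stfa2l1, 80 and 215 in Cstdc4, 82 in Stfa2, 135 in Stfa3 and 178 in Stfa1. TTGCNNAA, a core of the motif of CCAAT/enhancer binding proteins, occurred in 2 of 7 (Csta3 and Stfa1) and in 10.8% of all promoters, and TATAAA in 0 of 7 and in 13.6%. CTTTAAAA was picked after the sequences had been read. It occurred in 6 of 7, all but Csta2, and in 2.59% of all promoters, and in the 4 stretches above it lay 30 to 34 bases before the start. These members are copies of each other in part, so shared letters are not independent: 53.6% of the 12-base words of the Stfa2l1 promoter also occurred in that of Stfa2. A match to a motif describes the sequence and shows no binding.

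The 6 libraries held 542 to 5502 cells with 6300 to 10248 median UMIs per cell and 7086531 to 79971799 UMIs in all. Pairs of libraries shared 0 to 11 cell barcodes. The cells were clustered together without the stefin features, and 6 of 25 clusters were named as stages of the neutrophil lineage from marker genes. Promyelocyte-like cells had Elane and Mpo among their leading genes, myelocyte-like cells Fcnb and Mki67, and metamyelocyte-like cells Ly6g and Ltf. Mature neutrophil-like cells (called mature neutrophils here) lay in cluster 0, led by Prok2 and Mmp8, cluster 1, with Saa3 and Il1r2 among its leading genes, and cluster 2, with Acod1 and Csf1. Adjacent tissue Tim3-KD stood apart with 19 mature neutrophils (3.51% of its cells) and no cell of the earlier stages, whereas mature neutrophils numbered 552 to 1991 in the other libraries. Its values are given beside the others and not counted in the ranges over 5 libraries.

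Together the 8 genes took 0.155% of all UMIs in adjacent tissue Ctrl, 0.456% (Ctrl) and 0.440% (Tim3-KD) in micrometastasis, and 0.323% (Ctrl) and 0.256% (Tim3-KD) in macrometastasis. Adjacent tissue Tim3-KD had 288 stefin UMIs, 0.00406% of its total. Neutrophil-lineage cells held nearly all of these transcripts, and other classes held 0.595% to 1.22% of them in the 5 libraries. Fewer neutrophils and less stefin RNA per neutrophil give the same change in such a whole-library value, so levels are compared within stages below. They are given as CPM, stefin UMIs per 1000000 UMIs of the same cells.

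Stefin transcripts were near absent at the promyelocyte stage and reached their full level by the metamyelocyte or mature stage. The sum of the 8 genes lay at 9.84 to 70.0 CPM in promyelocyte-like cells of the 4 libraries with at least 20 of them. In myelocyte-like cells it was at 732 CPM in adjacent tissue Ctrl, 2245 in micrometastasis Ctrl, 1904 in micrometastasis Tim3-KD, 5884 in macrometastasis Ctrl and 3838 in macrometastasis Tim3-KD. In the 4 libraries with enough promyelocyte-like cells this was 51.2-fold to 390-fold above their level. In metamyelocyte-like cells the sum was at 3108 CPM in adjacent tissue Ctrl, 15490 (Ctrl) and 12631 (Tim3-KD) in micrometastasis, and 17777 (Ctrl) and 10570 (Tim3-KD) in macrometastasis. It was above the myelocyte level in all 5 libraries (2.75-fold to 6.90-fold). In mature neutrophils it was at 7043 CPM in adjacent tissue Ctrl, 15209 (Ctrl) and 16018 (Tim3-KD) in micrometastasis, and 9103 (Ctrl) and 8546 (Tim3-KD) in macrometastasis. The last step had no common direction. The mature level was 2.27 times the metamyelocyte level in adjacent tissue Ctrl (95% interval 2.22 to 2.31) and 0.512 times it in macrometastasis Ctrl (0.502 to 0.522), where only 31 metamyelocyte-like cells were found.

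**Figure D1:**
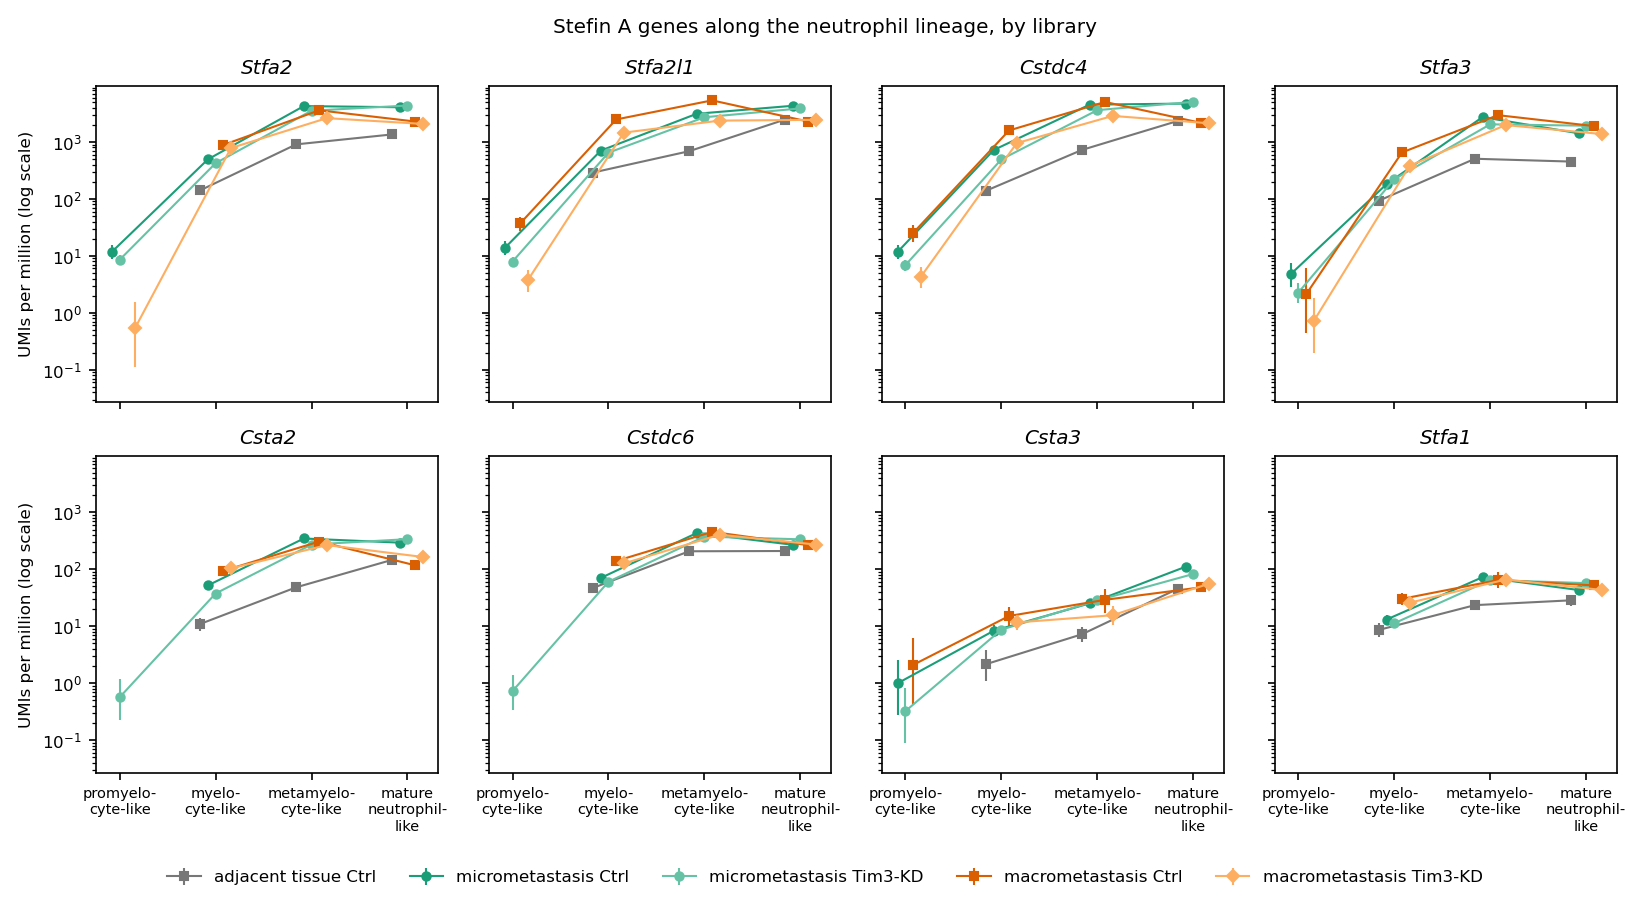
Level of each of the 8 genes (CPM, log axis) by stage of the neutrophil lineage in the 5 libraries with precursors, for groups of at least 20 cells and 3 UMIs; points are libraries and bars 95% Poisson intervals. All members lie far lower in promyelocyte-like cells than later, Stfa3 is lower in mature than in metamyelocyte-like cells in all 5 libraries, and Csta3 is higher in all 5.

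The members did not all follow the same course at the last step. Stfa3 fell short of its metamyelocyte level in mature neutrophils of all 5 libraries, at 0.520 to 0.945 times that level. Csta3, the least abundant member in myelocyte-like and metamyelocyte-like cells, went the other way and was 1.66 to 6.30 times higher in mature neutrophils in all 5. Where the metamyelocyte stage ends depended on the clustering. The stage held 1467 cells here, and clusters of 1149 and 915 cells in a finer clustering (resolution 2). The last-step ratios of the sum and of the members were not recomputed in another clustering. Stfa2l1 was the largest part of the sum in myelocyte-like cells of 4 libraries and second to Cstdc4 (32.1%) in micrometastasis Ctrl, with 31.3% to 42.1% of the stefin UMIs, and it made up 20.1% to 30.2% in metamyelocyte-like cells. Stfa3 made up 8.10% to 12.7% in myelocyte-like and 16.1% to 18.7% in metamyelocyte-like cells, so these ranges did not overlap. In mature neutrophils Stfa3 ranged from 6.41% to 20.8% between libraries, the widest relative range among the 4 abundant members. Since 3′ UMIs count each molecule once, these shares were not divided by gene length.

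**Figure D2:**
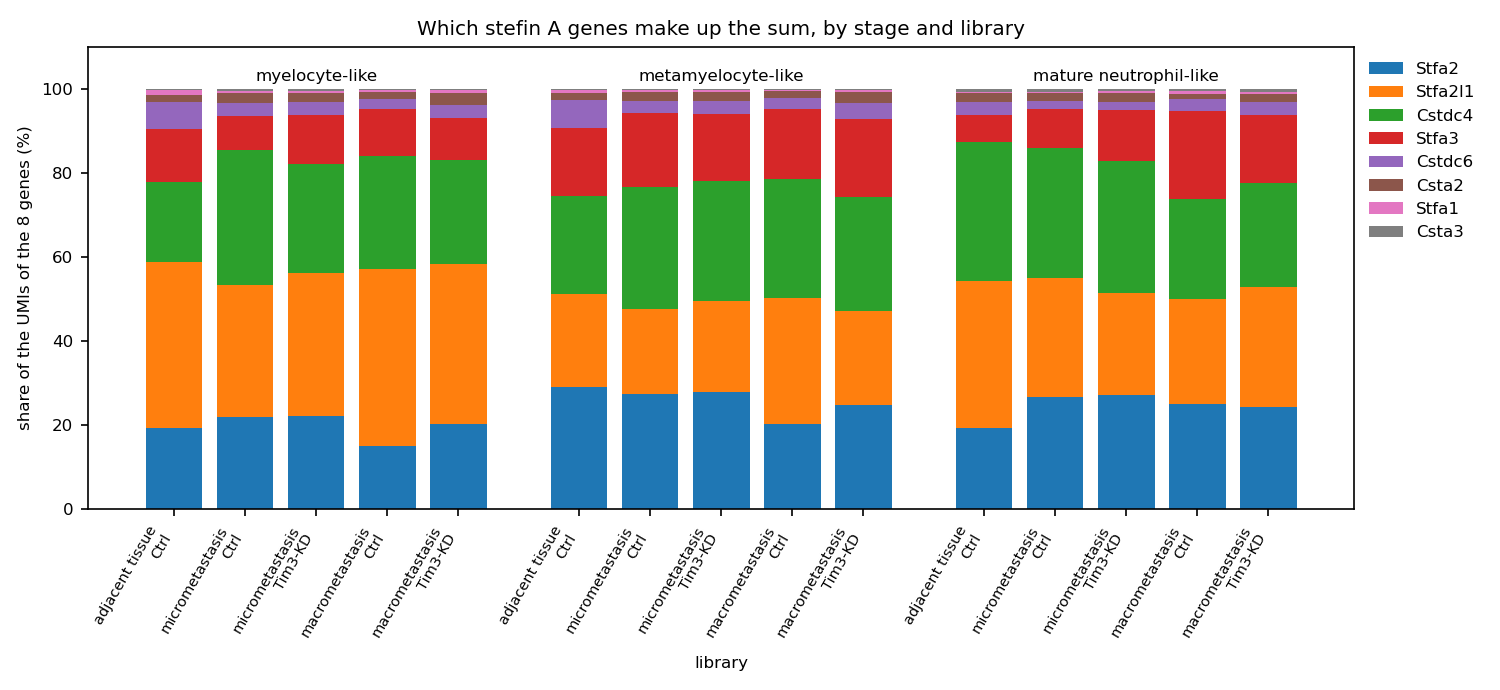
Share of each gene in the UMIs of the 8 genes (percent, stacked bars) by stage and library. Stfa2, Stfa2l1, Stfa3 and Cstdc4 together take 93.7% to 95.3% in mature neutrophils, and the Stfa3 part of these cells is widest in macrometastasis.

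Stfa2, Stfa2l1, Stfa3 and Cstdc4 made up 93.7% to 95.3% of the stefin UMIs of mature neutrophils in the 5 libraries. Stfa2 was at 1353 CPM in adjacent tissue Ctrl, 4061 in micrometastasis Ctrl, 4347 in micrometastasis Tim3-KD, 2279 in macrometastasis Ctrl and 2069 in macrometastasis Tim3-KD. Its close copy Stfa2l1 was at 2470, 4306, 3876, 2281 and 2440 CPM in the same order. Both were highest in micrometastasis, but Stfa2l1 exceeded Stfa2 by 1.82-fold in adjacent tissue Ctrl and was about level with it in macrometastasis Ctrl (ratio of UMIs 1.00, 0.984 to 1.02). Cstdc4 was at 2338, 4708, 5055, 2160 and 2126 CPM in that order. Stfa3 was at 452, 1417, 1924, 1898 and 1375 CPM. Like Stfa2 it was lowest in adjacent tissue Ctrl, but unlike the other 3 it was higher in macrometastasis Ctrl than in micrometastasis Ctrl. The other 4 members were lower than these in each library. Csta2 was at 118 to 339 CPM, Cstdc6 at 210 to 336, Csta3 at 45.7 to 111 and Stfa1 at 28.6 to 57.2.

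A stefin UMI was found in most mature neutrophils and in a smaller share of the cells of other types. Of mature neutrophils, 87.9% to 98.5% had at least 1 stefin UMI, and 82.1% to 96.4% when each cell was thinned to 1500 UMIs (no cell had fewer). Of B-like cells, which should lack the genes, 5.60% to 12.7% had one, and 1.28% to 4.94% after thinning, at median depths of 3499 to 5181 UMIs against 4888 to 5804 in mature neutrophils. The share was 7.95% to 17.3% in T-like cells, 16.7% to 25.7% in the deeper monocyte-like cells and 12.6% to 29.1% in Kupffer-like cells, and after thinning it was at most 6.54%, 10.6% and 9.38% in these classes. In CPM the mature neutrophils stood 153-fold to 575-fold above the B-like cells of their library, and at least 40.5-fold above monocyte-like and 71.2-fold above Kupffer-like cells. The thinned shares differed widely between members. Stfa2l1 was found in 70.3% to 86.6% of mature neutrophils, Cstdc4 in 50% to 80.3%, Stfa2 in 36.1% to 78.1% and Stfa3 in 17.8% to 63.4%. Csta2 was found in 11.4% to 31.9%, Cstdc6 in 18.7% to 32.5%, Csta3 in 4.89% to 13.7% and Stfa1 in 3.62% to 8.22%. Outside the lineage, the highest level was 1764 CPM in the 38 endothelial-like cells of micrometastasis Tim3-KD (36.8% with a stefin UMI), cells that a CD45 sort should leave out. The part of free RNA in these UMIs was not tested.

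The level per cell varied widely within each library. The median mature neutrophil carried 32.3 stefin UMIs per 10000 in adjacent tissue Ctrl, 93.4 (Ctrl) and 121 (Tim3-KD) in micrometastasis, and 45.1 (Ctrl) and 49.4 (Tim3-KD) in macrometastasis. The upper quartile was 4.49 to 9.28 times the lower quartile. Cells without a stefin UMI numbered 67 of 552 in adjacent tissue Ctrl, 38 of 1339 in micrometastasis Ctrl, 21 of 1436 in micrometastasis Tim3-KD, 97 of 1656 in macrometastasis Ctrl and 110 of 1991 in macrometastasis Tim3-KD. In the cell with the most, the 8 genes took at least 4.85% of all UMIs in each of the 5 libraries. Every library thus held mature neutrophils in which no stefin UMI was sampled beside cells with several percent of their UMIs from these genes.

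**Figure D3:**
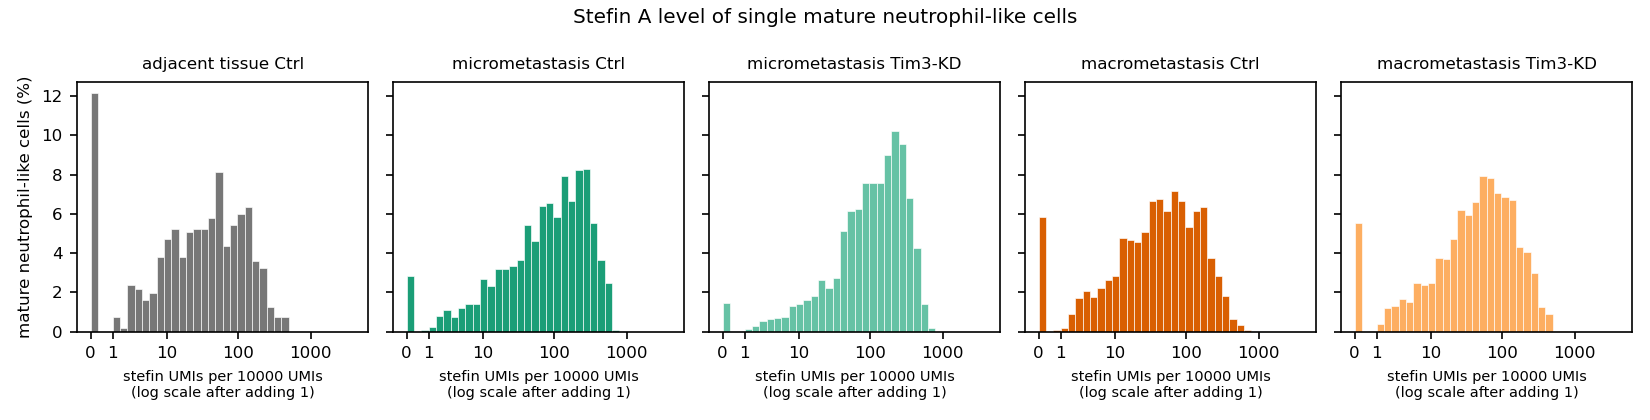
Distribution of stefin UMIs per 10000 UMIs over single mature neutrophils in 5 libraries (horizontal axis, stefin UMIs per 10000; vertical axis, percent of cells). The medians are 32.3 in adjacent tissue Ctrl, 93.4 (Ctrl) and 121 (Tim3-KD) in micrometastasis, and 45.1 (Ctrl) and 49.4 (Tim3-KD) in macrometastasis, and each library holds cells without a stefin UMI.

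Within libraries, the abundant members were high in the same cells. Over mature neutrophils thinned to 1500 UMIs, Pearson's r of Stfa2 with Stfa3 (log1p of UMIs) was 0.522 to 0.683 in the 5 libraries. For Stfa2 with Cstdc4 it was 0.477 to 0.670, for Stfa2l1 with Cstdc4 0.471 to 0.645 and for Stfa2 with Stfa2l1 0.397 to 0.621. Csta2 with Cstdc4, which share transcript stretches, had 0.444 to 0.507. The points are 552 to 1991 cells that share a library and a clustered class. The part of reads that could be given to either of a pair of copies was not tested. Stfa3 shared no 90-base stretch with the members whose transcripts were compared. Cstdc6 and the neighbouring genes Cstdc5 and Cstdc3 had no GENCODE name, so stretches shared with them were not tested. The rare members gave too few UMIs per cell for a correlation to be read.

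Between sites, the stefin genes were higher in micrometastasis than in adjacent tissue of Ctrl mice at day 3. The sum in mature neutrophils was 2.16 times higher (2.13 to 2.19), and all 8 members were higher with an interval above 1. Stfa3 had the highest ratio at 3.14 (2.97 to 3.31) and Stfa2 followed at 3.00 (2.91 to 3.09). Csta3 was at 2.43, Cstdc4 at 2.01, Csta2 at 2.00, Stfa2l1 at 1.74, Stfa1 at 1.52 and Cstdc6 at 1.29. Thus 7 of 8 members passed 1.5-fold higher and 0 passed 1.5-fold lower, while of the 1226 single-gene features with at least 100 UMIs over both libraries 9.54% were over 1.5-fold higher and 15.5% over 1.5-fold lower. The median over these features was -0.09 on the log2 scale. The members were chosen on values of these libraries, so this count is not independent of the choice. The mature cells were not of the same mix: cluster 2 held 73.2% of them in adjacent tissue and 34.8% in micrometastasis, and cluster 0 held 26.8% and 64.5%. The sum was higher in micrometastasis within cluster 0 (2.02 times) and within cluster 2 (1.64 times), though Stfa1 and Cstdc6 were at 0.975 and 0.878 in cluster 2. In metamyelocyte-like cells the gap was wider, with a ratio of 4.98 for the sum and 2.09 to 7.20 for the 8 members, and in myelocyte-like cells the sum had a ratio of 3.07.

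From micrometastasis to macrometastasis in Ctrl, which differ in both site and day, the members split. The sum in mature neutrophils was at 0.599 of its micrometastasis level (0.594 to 0.603). Csta2 was at 0.40 (0.375 to 0.427), Csta3 at 0.435 (0.393 to 0.482), Cstdc4 at 0.459 (0.452 to 0.466), Stfa2l1 at 0.530 (0.522 to 0.538) and Stfa2 at 0.561 (0.553 to 0.570). Stfa3 stood at 1.34 (1.31 to 1.37) and Stfa1 at 1.21 (1.06 to 1.37), both above 1, and Cstdc6 at 0.986 with an interval that holds 1. So 5 of 8 members passed 1.5-fold lower and 0 passed 1.5-fold higher, against 13.4% and 38.2% of 1093 features. The median over these features was 0.37 on the log2 scale, and cluster 1, which held 83.9% of mature neutrophils in macrometastasis Ctrl, held 0.672% in micrometastasis Ctrl. Within cluster 2, where both libraries had over 200 cells, the same 5 members passed 1.5-fold lower, against 13.8% of 580 features, and Stfa3 was at 0.904. The share of stefin UMIs from Stfa3 was thus higher in macrometastasis, and its ratio to Stfa2 within the same cells was 0.349 in micrometastasis Ctrl (0.342 to 0.356) and 0.833 in macrometastasis Ctrl (0.818 to 0.847). Within cluster 2 that ratio was 0.278 and 0.527, so it differed there in the same direction. The precursors did not follow the mature cells: in myelocyte-like cells 7 of the 7 members with at least 100 UMIs were over 1.5-fold higher in macrometastasis, against 19.3% of 498 features, with Stfa3 at 3.59 and Stfa2l1 at 3.52. In metamyelocyte-like cells the sum had a ratio of 1.15, on 31 macrometastasis cells.

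**Figure D4:**
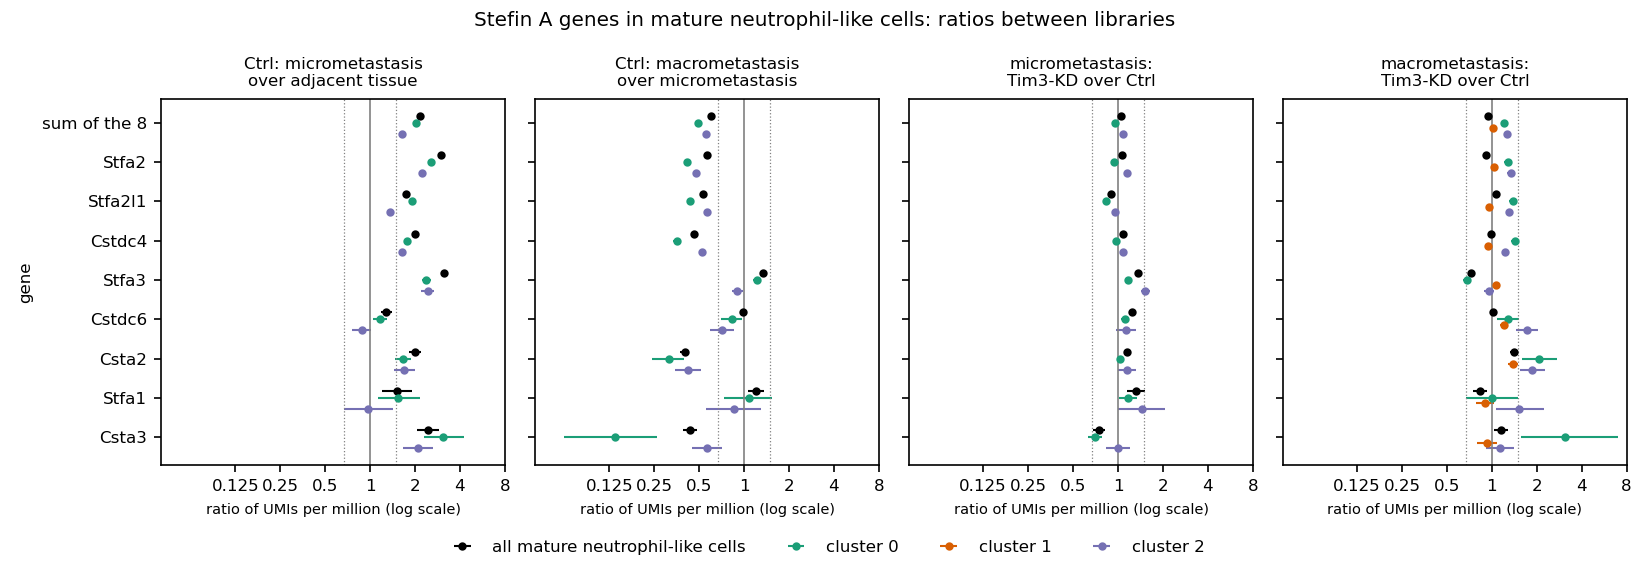
Ratios of CPM in mature neutrophils (log axis, 95% intervals) for the sum and each of the 8 genes in 4 comparisons, over all mature neutrophils (black) and within clusters 0, 1 and 2 (colours), with dotted lines at 1.5-fold in both directions. In the site comparison of day 3, 7 of 8 members lie past 1.5-fold higher, whereas in both Tim3-KD comparisons all 8 members lie between the dotted lines over all mature neutrophils.

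The Tim3-KD comparison asks whether the neutrophils near a metastasis change with the TIM3 level of its tumour cells. In micrometastasis, none of the 8 members passed 1.5-fold in either direction over all mature neutrophils. The sum came to 15209 CPM with Ctrl tumours against 16018 with Tim3-KD tumours, a ratio of 1.05 (1.05 to 1.06). Stfa3 was at 1.36 (1.33 to 1.39), Stfa1 at 1.32 (1.16 to 1.51) and Cstdc6 at 1.25 (1.18 to 1.31), whereas Csta3 was at 0.746 (0.680 to 0.819) and Stfa2l1 at 0.900 (0.888 to 0.913). Csta2, Cstdc4 and Stfa2 lay between 1.07 and 1.15. Of 1601 features with at least 100 UMIs, 4.56% were over 1.5-fold higher and 11.9% over 1.5-fold lower, with a median of -0.10 on the log2 scale. Cluster 0 held 64.5% of the mature cells of Ctrl and 79.8% of those of Tim3-KD, and within cluster 0 the ratio of the sum turned to 0.95, while in cluster 2 it was 1.09. Of the members, 0 passed 1.5-fold within cluster 0 and Stfa3 passed it within cluster 2, at 1.53 (1.42 to 1.63), where 8.49% of 989 features were over 1.5-fold higher. The small difference over all mature neutrophils thus had no direction that held within clusters. In metamyelocyte-like cells the sum was lower in Tim3-KD, at 0.815, and the members lay at 0.747 to 1.13. There 0 of 8 passed 1.5-fold in either direction. The intervals of 7 of 8 lay below 1, a count for which no share over all features was taken at this stage.

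In macrometastasis, 0 of 8 members passed 1.5-fold in either direction over all mature neutrophils as well. The sum came to 9103 CPM with Ctrl tumours against 8546 with Tim3-KD tumours, a ratio of 0.939 (0.931 to 0.946). Csta2 was at 1.40 (1.31 to 1.5) and Csta3 at 1.15 (1.04 to 1.28), and Stfa3 was at 0.725 (0.711 to 0.738), Stfa1 at 0.832 (0.745 to 0.929) and Stfa2 at 0.908 (0.893 to 0.923). Stfa2l1 was at 1.07, Cstdc6 at 1.02 and Cstdc4 at 0.984. Of 1630 features, 8.59% were over 1.5-fold higher and 9.26% over 1.5-fold lower, with a median of -0.11 on the log2 scale. The mature cells differed in mix, with cluster 1 at 83.9% in Ctrl and 49.4% in Tim3-KD and cluster 2 at 13.6% and 39.4%. Within clusters the ratio of the sum was 1.20 in cluster 0, 1.01 in cluster 1 and 1.26 in cluster 2. The lower value over all mature neutrophils thus did not hold within any of them. Cluster 0 rests on only 41 Ctrl cells, against 222 of Tim3-KD, and its Csta3 level on 9 UMIs in Ctrl. Stfa3 was at 0.679 in cluster 0, 1.06 in cluster 1 and 0.953 in cluster 2. Csta2 was above 1 in all 3 clusters, at 2.06, 1.38 and 1.86. The joint feature of Csta2 and Cstdc4 was at 733 CPM (Ctrl) and 743 CPM (Tim3-KD) over all mature neutrophils. The Csta2 ratios leave that feature out. Over 1.5-fold higher were Csta2 and Csta3 (3.09, 1.56 to 6.98) in cluster 0, against 19.8% of 323 features, and Stfa1 (1.52), Csta2 and Cstdc6 (1.71) in cluster 2, against 5.9% of 1067 features. In metamyelocyte-like cells (31 of Ctrl, 95 of Tim3-KD) the sum was at 0.595, with Stfa2l1 at 0.441 and Cstdc4 at 0.569.

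**Figure D5:**
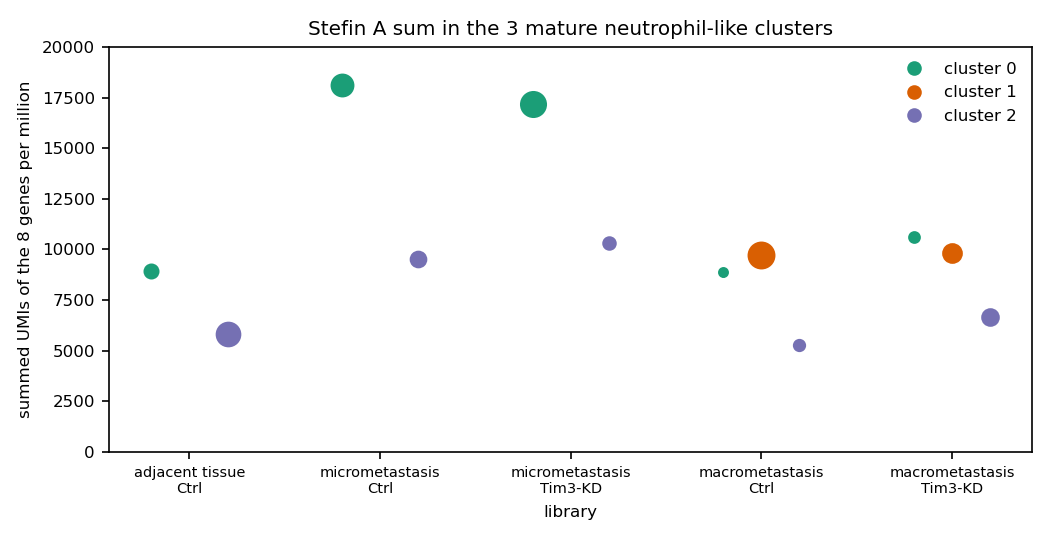
Level of the stefin sum (CPM) in clusters 0, 1 and 2 of the mature neutrophils by library, where larger points stand for a larger share of the mature neutrophils of the library. Cluster 0 lies above cluster 2 in each of the 5 libraries, from 8860 to 18108 CPM against 5268 to 10330, and in both clusters the micrometastasis libraries are the highest.

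The levels also differed between the clusters of mature neutrophils. Cluster 0 was at 8950 CPM in adjacent tissue Ctrl, 18108 (Ctrl) and 17203 (Tim3-KD) in micrometastasis, and 8860 (Ctrl) and 10628 (Tim3-KD) in macrometastasis. Cluster 2 was at 5800, 9502, 10330, 5268 and 6654 CPM in that order. It was the lower of these clusters in every library. Cluster 1, found almost only in macrometastasis, lay at 9742 CPM (Ctrl) and 9834 CPM (Tim3-KD). Csta3 was the member that ran counter to this order: it was higher in cluster 2 than in cluster 0 in adjacent tissue Ctrl (52.1 and 35.8 CPM), in micrometastasis Tim3-KD (109 and 77.6) and in both macrometastasis libraries (61.4 and 15.1 in Ctrl, 69.2 and 46.7 in Tim3-KD). In micrometastasis Ctrl it was at 109 and 111. The cluster 0 values of macrometastasis Ctrl rest on 41 cells, with 9 UMIs of Csta3.

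Adjacent tissue Tim3-KD rests on 19 mature neutrophils, all in cluster 2, with 283 stefin UMIs. The sum was at 2734 CPM (2424 to 3072), 0.388 of the Ctrl level (0.344 to 0.436) and 0.471 of the level of Ctrl cells of cluster 2. Cstdc4 gave 170 of the UMIs and Stfa2l1 82, whereas Stfa2 gave 3 and Stfa1, Stfa3 and Csta3 none. For Stfa2 this is a ratio of 0.0214 (0.00441 to 0.0626). For Stfa3, with 3 UMIs taken as the most that a count of 0 allows, the level was at most 29.0 CPM against 452 CPM in Ctrl, and the interval of its ratio, which uses a wider limit, ended at 0.0790. The ratio intervals ended at 0.790 for Csta3 and, holding 1, at 1.27 for Stfa1. Of the 7 members with at least 100 UMIs over both libraries 5 passed 1.5-fold lower and 0 higher, while of 869 features 20.5% were lower and 41.8% higher, with a median of 0.38 on the log2 scale. Csta2, at 1.32 (0.798 to 2.06), had an interval that holds 1. Against Ctrl cells of cluster 2 alone, the same 5 members were lower and Csta2 was higher, at 1.87 (1.12 to 2.97), where 26% of 573 features were lower and 30.9% higher.

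The proteases that stefins block were followed in mature neutrophils from a list of cysteine cathepsins and legumain. Of 11 listed genes, both matrices held 7 in the comparison of micrometastasis with adjacent tissue. Of these, 5 had at least 100 UMIs, and 0 of the 5 passed 1.5-fold (median -0.12 on the log2 scale). Ctsl, a lysosomal protease inhibited by stefins, lay in Ctrl at 302 CPM (adjacent tissue), 279 CPM (micrometastasis) and 721 CPM (macrometastasis). It was 2.59 times higher in macrometastasis than in micrometastasis, the one gene of 5 past 1.5-fold higher, against 38.2% of 1093 features. Ctss was the one past 1.5-fold lower there, at 0.408 (134 and 54.6 CPM), against 13.4% of features. Ctsb, at 224 to 332 CPM, stayed within 1.5-fold in all comparisons but adjacent tissue Tim3-KD over Ctrl, where it had a ratio of 1.75. In the Tim3-KD comparisons 0 of 6 genes were higher and 1 lower in micrometastasis (Lgmn at 0.632), and 0 of 5 passed 1.5-fold in macrometastasis. In adjacent tissue, with 19 Tim3-KD cells, 2 of 4 were higher (Ctss and Ctsb) and 2 lower (Ctsl and Ctsc).

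Protease inhibitors outside the gene cluster were described from a list of cystatins and a list of serine proteases with their inhibitors. Of 8 listed cystatins, the adjacent tissue matrix held 3 and the metastasis matrices 2, so the rest could not be followed. Cst3, the secreted cystatin C, was the only one of those held with at least 100 UMIs. It lay at 608 to 874 CPM in mature neutrophils of the 5 libraries, within 1.5-fold in each comparison. Cst7, cystatin F, ran opposite along the lineage, with 230 to 263 CPM in promyelocyte-like cells and 0.4 to 1.5 in mature neutrophils. Of the serine proteases and their inhibitors, 1 of 7 genes was over 1.5-fold higher in micrometastasis than in adjacent tissue (Serpinb1a, an inhibitor of elastase, at 1.94) and 2 lower (Elane at 0.380 and Ctsg at 0.545). From micrometastasis to macrometastasis 1 of 6 was higher (Serpinb1a at 1.56) and 3 lower, led by Mpo at 0.194. In Tim3-KD over Ctrl 2 of 7 were higher in micrometastasis, against 4.56% of features, and 3 of 8 in macrometastasis, against 8.59%. Ctsg (4.35) and Mpo (4.24) led in macrometastasis. At either site 0 were lower, against 11.9% and 9.26% of features. Promyelocyte-like cells numbered 71 (Ctrl) and 314 (Tim3-KD) in micrometastasis and 29 and 95 in macrometastasis. The part of their RNA in these ratios was not tested. In adjacent tissue 4 of 5 were lower, among them the inhibitor Serpinb1a with 0 UMIs in Tim3-KD (interval of the ratio up to 0.668) and Wfdc21 at 0.140, with Slpi at 0.796 the exception. Elane, Prtn3, Ctsg and Mpo were at most at 50.4 CPM in mature neutrophils, against at least 4938 CPM in promyelocyte-like cells. Over all features, 9.54% were higher and 15.5% lower in micrometastasis over adjacent tissue, and 38.2% and 13.4% in macrometastasis over micrometastasis. In adjacent tissue Tim3-KD over Ctrl these shares were 41.8% and 20.5%.

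Maturation and activation genes give the background of the mature class. The shares over all features for each comparison are those given above. From adjacent tissue to micrometastasis, 2 of 10 maturation genes were over 1.5-fold higher, Mmp8 at 2.65 and Cd177 at 1.54, and 1 lower, Cd274 at 0.377 (median -0.03 on the log2 scale). Of 14 activation genes 3 were higher, led by Saa3 at 7.55, and 7 lower, led by Rsad2 at 0.451. From micrometastasis to macrometastasis 1 of 8 maturation genes was higher (Ltf at 3.97) and 3 lower (Cxcr2 at 0.460), and 2 of 15 activation genes were higher (Tnf at 2.37) and 9 lower (Prok2 at 0.222). In Tim3-KD over Ctrl of micrometastasis, 1 of 11 maturation genes was higher (Ltf at 2.59) and 2 lower (Il1b at 0.389), and 1 of 15 activation genes was higher (Tnf at 1.80) and 5 lower (Cxcl3 and Ptgs2 at 0.178). In macrometastasis 1 of 11 was higher (Cxcr2 at 1.63) and 0 lower, and 7 of 15 activation genes were higher (Ifit1 at 2.95) and 2 lower (Tnf at 0.551). In adjacent tissue 2 of 10 maturation genes were higher and 4 lower, and 4 of 13 activation genes were higher and 4 lower. Over all mature neutrophils, both Tim3-KD comparisons at metastases held activation genes past 1.5-fold and 0 of 8 stefin genes. Within some single clusters 1 to 3 stefin genes passed it, as given above. Few features passed it at all, 4.56% higher and 11.9% lower in micrometastasis and 8.59% and 9.26% in macrometastasis. A count of 0 of 8 therefore does not set the stefin genes apart from other features.

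Outside the gene cluster, the genes most alike in pattern to the stefin sum over cell types included Cxcr2, Mmp9, G0s2 and Il1r2, markers of mature neutrophils. Over 57 groups (a class in a library, at least 50 cells, log2 of CPM plus 10) Pearson's r was 0.97 for Asprv1, a protease known from skin, 0.95 for Slfn4 and Chil1, 0.93 for Cxcr2, Mmp9 and Ceacam10, 0.92 for G0s2 and Il1r2 and 0.91 for Ly6g and Slc16a3. The groups share libraries and most lie near 0 for all these genes, and over the 17 neutrophil groups alone r was 0.96 for Asprv1 and 0.86 for Ly6g. Among members, r with the sum of the others was 0.87 for Csta3 and 0.92 to 0.99 for the other 7. Over single mature neutrophils, thinned to 1500 UMIs, no gene of 388 ranked had a mean r above 0.23 with the stefin sum (Wfdc21) or below -0.28 (Junb, in 1 library). Ccrl2, with a value in 5 libraries, was at -0.318 to -0.197. In the same 5, Ifitm6 was at 0.113 to 0.227 and Anxa1 at 0.101 to 0.209. Each kept its sign in all 5, but the values were small, so none is read as moving closely with the sum.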

How the data were processed

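Single-cell RNA-seq was measured in 6 libraries of CD45+ liver cells, 1 per group. The authors trimmed reads with Trim Galore 0.4.3, mapped them with STAR 2.7.7a to GRCm38, counted UMIs over exons and introns, filtered cells on UMIs, genes and mitochondrial reads, and removed doublets found with scrublet. No doublet caller was run here.

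The deposited values were scaled scores, 1 matrix per site. Each gene had been centred, divided by its SD and capped at 10 after a covariate of the cell was regressed out, a step taken from the values because the sources used here do not state it. The deposited barcodes and feature names (unit other) gave cells, libraries and genes. The comparisons were designed for UMIs, so the UMIs were recovered from the scores. Where a gene has no UMI, its scores fall on 1 line against the regressed total of the cell, and that line gives the offset and slope needed. The scale of each gene was then fitted to its scores above that line, so that they became whole UMIs. After this fit, values above 0 that were whole (within 0.05) made up 99.9999% in both the adjacent tissue and the micrometastasis matrix. In the macrometastasis matrix they made up 99.9974%. Since the scale was fitted to whole values, these shares are not independent of the fit. Capped scores (0.144%, 0.160% and 0.153%) give lower bounds, and among members they were met in 4 cells of adjacent tissue. On data simulated around adjacent tissue with the same model (4485 features, 2345 cells), 99.93% of the uncapped entries, zeros included, were returned exactly.

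Cells were clustered with scanpy 1.11.5 and leidenalg 0.10.2 on 1633 of the 1642 features shared by the 3 matrices, without 9 stefin features (30 components, 15 neighbours, resolution 1, seed 1). Clusters were named from fixed markers when at least 3 were detected in 25% of cells and 2-fold higher. UMIs were summed per library and class and given per 1000000 UMIs of the cells (CPM), with exact Poisson intervals for levels, exact conditional binomial intervals for ratios and exact binomial intervals for shares, at 95%, in Python 3.11.15 with numpy 2.4.6 and scipy 1.17.1. Ratios were described against single-gene features with at least 100 UMIs over both libraries. Detection shares are given after each cell was thinned to 1500 UMIs.

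The members, marker lists and gene lists were chosen with earlier results of these data known. Named genes were the 8 members, up to 4 genes of highest or lowest ratio from each of 5 lists, and the 10 genes most alike to the sum. Alternatives were another clustering, cells called one by one from markers, depth limits, other scalings, the joint feature and leaving out capped cells. Clusters 0, 1 and 2 were added as alternatives after seeing the data.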

Additional observations from a re-analysis of the deposited data

Results flagged for a closer look

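In mature neutrophils the Tim3-KD over Ctrl ratios of 5 of the 8 genes, and that of the sum, lay on opposite sides of 1 in micrometastasis and macrometastasis with intervals that did not hold 1 at either. Cstdc4 also changed side, at 0.10 and -0.0231 on the log2 scale, but its macrometastasis interval held 1. The difference on the log2 scale, macrometastasis minus micrometastasis, was -0.91 for Stfa3, -0.67 for Stfa1, -0.24 for Stfa2, 0.25 for Stfa2l1, 0.63 for Csta3 and -0.17 for the sum. With 1 library per group this difference was not tested, and the sum did not keep its direction within clusters at either site. No share over all features was taken for the count of 5. The side of a ratio also rests on taking 1 as the reference. The median feature had a log2 ratio of -0.10 (micrometastasis) and -0.11 (macrometastasis), and the macrometastasis sum, at -0.09, lay close to it. Against the trimmed mean over genes the sum was higher in Tim3-KD at both sites, as given below.

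Features outside the 8 genes also carried a signal from the same stretch of chromosome 16. Cstdc5, held by the adjacent tissue matrix only, was at 3792 CPM in mature neutrophils of adjacent tissue Ctrl, above each of the 8 genes there, against 25.5 CPM in B-like cells. The joint feature of Csta2 and Cstdc4 was at 1029 CPM there, against 1.66 CPM in B-like cells. In mature neutrophils of micrometastasis it was at 1635 (Ctrl) and 1737 CPM (Tim3-KD), and in those of macrometastasis at 733 and 743 CPM. In each of these libraries it was above Csta2 alone, so the Csta2 values cover only the UMIs given to that gene.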

How the results depend on the processing

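The sum in mature neutrophils was recomputed on the log2 scale. Micrometastasis over adjacent tissue in Ctrl (1.11) stayed above 0 in all 11 alternatives. It was 0.99 with the members in the clustering, 0.99 at resolution 2, 1.23 in cells called one by one, 1.21 as a mean over cells, 1.19 against the trimmed mean over genes, 1.06 with the joint feature, 1.15 without capped cells, and 1.02 and 0.71 within clusters 0 and 2. Macrometastasis over micrometastasis in Ctrl (-0.74) stayed below 0 in all 11, at -0.50 with the members, -0.97 at resolution 2, -1.16 one by one, -0.80 without the deepest 5% of cells, -0.84 as a mean, -1.11 against the trimmed mean, -0.78 with the joint feature, and -1.03 and -0.85 within clusters 0 and 2.

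Tim3-KD over Ctrl in macrometastasis (-0.09) turned to 0.0792 at resolution 2, 0.11 one by one, 0.010 against the trimmed mean and 0.26, 0.0136 and 0.34 within clusters 0, 1 and 2, and was -0.11 with the members, -0.0280 without the deepest cells and -0.0216 as a mean. In micrometastasis (0.07) it turned to -0.0739 within cluster 0, and was 0.0456 with the members, 0.0965 one by one, 0.0612 without cells under 3000 UMIs, 0.16 as a mean, 0.18 against the trimmed mean and 0.12 within cluster 2. In adjacent tissue (-1.37) it was -1.92 one by one, -1.78 against the trimmed mean, -1.10 with the joint feature and -1.09 within cluster 2. The cause of these shifts was not tested. Of 48 shares of cells with a UMI, 40 moved past their interval without thinning. No paired analysis was possible because each group had 1 library. Depth limits Stfa1 and Csta3 most, and all values of adjacent tissue Tim3-KD.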
